A study of Mus musculus with 6 samples.

Results

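The clustered histone genes were the genes whose symbols begin with Hist1h, Hist2h, Hist3h or Hist4h, and they were found by that name in the count tables: 68 of the 18011 gene symbols listed in any sample. By family they were 6 genes of the linker histone H1, 19 of H2A, 18 of H2B, 12 of H3 and 13 of H4. Of the 68, 64 were listed in the tables of all 6 samples and 64 passed the filter on low counts in the sum of all cells. The genes left untested there were Hist1h1t, Hist1h2aa, Hist1h2ba and Hist2h2aa2, each with under 1 CPM in every sample.

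Droplet-based single-cell RNA sequencing had been run on lineage-negative haematopoietic stem and progenitor cells, the bone marrow fraction depleted of cells that carry mature lineage markers. The mice were Stag2 KO in 3 samples and Stag2 wt in 3 samples. Stag2 encodes a subunit of the cohesin ring, which holds chromatin loops and sister chromatids. The labels give no age, sex or strain, no agent, and nothing on how or in which cells Stag2 was deleted, and no allele is stated to be shared by both groups. They are called KO1 to KO3 and WT1 to WT3 here, numbered in the order of deposit, which pairs no samples. The sample titles also carry a code: its prefix was XA for all 3 KO samples and for WT1, XG for WT2 and XN for WT3, and what the prefix marks is not stated.

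In the tables, 25636 cell barcodes were listed and 23416 cells were kept, between 2385 and 6407 per sample with 15628476 to 34610448 unique molecular identifiers (UMIs, counted molecules). Median UMIs per kept cell ran from 5742 to 6010 in KO and from 3513 to 4899 in wt, and 391 barcodes occurred in more than 1 sample. Stag2 stood at 25.1, 23.8 and 19.9 CPM (UMIs of the gene per 1000000 UMIs of the summed cells) in KO and 53.2, 43.1 and 42.7 CPM in wt (log2 difference -1.05 ± 0.12 SE, edgeR adjusted p = 0.000684). Since the reads come from the 3′ end and the deleted exons are not stated, this level alone does not check the genotype label.

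Most histone protein is made from the clustered genes, whose transcription rises as cells copy their DNA. Their mRNAs are unusual: the replication-dependent kind has no introns and ends in a short stem-loop instead of a poly(A) tail. Stem-loop binding protein, encoded by Slbp, holds that loop and steers processing, export and decay of the mRNA. Some members also make longer, polyadenylated transcripts, for example in differentiated cells. H2A, H2B, H3 and H4 form the core around which DNA is wrapped, and H1 closes the nucleosome at the linker. The libraries here were made from poly(A) RNA with a 3′ kit, so a level in CPM is a count of captured molecules with no division by length, and says little on how much of a gene's RNA was captured.

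The stem-loop could be read in the annotated transcripts (GENCODE M21, GRCm38) of 43 of the 68 genes, and the windows of 8 members described in the results follow. Hist1h2ap, the member with the largest difference between genotypes, has a run of A just before the loop that most of the others lack. Each line gives 28 bases of the 3′ UTR, on the strand of the gene and from 5′ to 3′, with the 16-base stem-loop in capitals.
Hist1h2ap, chr13:21833029-21833056, minus strand: aaaaaaaaaaaaGGCTCTTTTCAGAGCC
Hist1h2ao, chr13:21810886-21810913, plus strand: aaaaaaaaaaaaGGCTCTTTTCAGAGCC
Hist1h2ae, chr13:23570668-23570695, minus strand: aaaaaaaacaaaGGCTCTTTTCAGAGCC
Hist1h2ac, chr13:23683477-23683504, minus strand: ttcaaacccaaaGGCTCTTTTCAGAGCC
Hist1h1c, chr13:23739500-23739527, plus strand: aacaatccaaaaGGCTCTTTTCAGAGCC
Hist1h3f, chr13:23544920-23544947, plus strand: gtaaaccaaaacGGCTCTTTTAAGAGCC
Hist1h4c, chr13:23698089-23698116, minus strand: ctgtcaacaaaaGGCCCTTTTCAGGGCC
Hist1h4i, chr13:22040966-22040993, minus strand: atgctacttaaaGGCCCTTTTTAGGGCC

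The form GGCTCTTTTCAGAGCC occurred in 25 members of the H1, H2A, H2B and H3 families. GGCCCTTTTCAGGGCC occurred in 7 H4 genes, and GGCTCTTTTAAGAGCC in 6 genes, Hist1h3f among them. Hist1h2ap and its copy Hist1h2ao have 12 A in the 12 bases before the loop, Hist1h2ae has 11, and the other members with 9 or more were Hist1h2ab and Hist1h2ad with 9 each. The median level over the 6 samples was 4.56 CPM for those 5 genes, with a range of 0.554 to 286 CPM, against 10.7 CPM for the 15 members with 7 or 8 A and 4.398 CPM for the 19 with 5 or 6. A-rich windows thus occurred at both the highest and some of the lowest levels. Whether these A runs bear on the levels was not tested.

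Several members cannot be told apart by short reads. Of the 68, 55 lie on chromosome 13, 10 on chromosome 3, 2 on chromosome 11 and 1 on chromosome 6, and 63 have a single exon. The coding sequence of 49 was at least 95% identical to that of another member, and 8 had an identical copy. In 27, most of the 90-base windows of the transcript recurred in another annotated transcript. Hist1h2ap, an H2A gene (ENSMUSG00000094777, chr13:21833026-21833507, minus strand, 1 exon), is the plainest case. Its coding sequence is identical to that of Hist1h2ao (chr13:21810465-21810944, plus strand), every 90-base window of its last 300 bases recurs elsewhere, and it overlaps Gm44466 on the other strand. How the counting assigned such reads, and whether strand was used, is not given in the sources. Values of Hist1h2ap are therefore those of the reads assigned to that symbol, and the same holds for Hist1h3e with Hist1h3f, Hist2h2aa1 with Hist2h2aa2, Hist1h4m with Hist1h4n, and Hist1h1e with Hist1h2be, which overlap on the same strand.

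Over all kept cells, levels were very uneven: 10 members held 74.2% of the members' summed mean level, 52 members had a mean under 10 CPM and 10 a mean under 1 CPM. The 10 were Hist1h2ap, Hist1h2bc, Hist1h1c, Hist1h1b, Hist1h1e, Hist1h4i, Hist1h2ae, Hist3h2a, Hist1h4d and Hist1h4c. Hist1h2ap alone made up 38.6% of the members' level in wt and 13.04% in KO.

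With all cells of a sample summed, 11 of the 64 tested members were lower in Stag2 KO and 0 were higher (edgeR quasi-likelihood test, Benjamini-Hochberg adjusted p under 0.05 over 12643 genes). That is 17.2% of the tested members, where 7.2% of all genes tested were lower and 3.6% higher. At an unadjusted p under 0.05, edgeR found 28 members lower (43.8%, against 14.1% of all genes) and 0 higher (10.6% of all genes). By adjusted p, DESeq2 called 16 lower (25%, against 7.44% of all genes) and 0 higher (3.45% of all genes). The estimate was negative for 58 members and positive for 6, with a median log2 difference of -0.40, against 0.01 over all genes. Levels of the 2 groups did not overlap for 21 members, all lower in KO, where 13.2% of all genes were lower and 17.2% higher without overlap.

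Hist1h2ap differed most. Its level was 90.002, 127 and 79.1 CPM in KO1, KO2 and KO3 and 223, 658 and 542 CPM in WT1, WT2 and WT3 (log2 difference -2.29 ± 0.34 SE, edgeR adjusted p = 0.00239). Every KO sample was below every wt sample, and WT1 lay nearer to the KO samples than to WT2 and WT3. Its copy Hist1h2ao read 0.433, 0.667 and 0.655 CPM in KO and 1.02, 1.01 and 0.711 CPM in wt (log2 difference -0.68 ± 0.31 SE, edgeR adjusted p = 0.211).

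Of the other H2A genes tested, 3 were lower in KO. Hist1h2ae, the H2A gene with the next highest level, stood at 38.6, 33.6 and 32.2 CPM in KO and 56.9, 53.4 and 48.8 CPM in wt (log2 difference -0.64 ± 0.09 SE, edgeR adjusted p = 0.00183). Hist1h2ac had 3.35, 3.80 and 4.69 CPM in KO and 6.65, 8.43 and 6.40 CPM in wt (-0.90 ± 0.16, edgeR adjusted p = 0.00607). Hist2h2aa1, from the chromosome 3 cluster, had 2.17, 2.57 and 2.48 CPM in KO and 5.31, 4.79 and 3.28 CPM in wt (-0.91 ± 0.20, edgeR adjusted p = 0.0172). None of the 3 overlapped between groups. Hist3h2a, an H2A gene on chromosome 11 whose annotation overlaps Trim17 on the same strand, read 32.2, 35.6 and 30.3 CPM in KO and 33.1, 18.4 and 21.2 CPM in wt. It was not called (log2 difference 0.42 ± 0.19 SE, edgeR adjusted p = 0.205), and WT1 lay among the KO samples.

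Among H2B genes, 5 of 17 tested were lower in KO. Hist1h2bj stood at 9.22, 10.2 and 9.03 CPM in KO and 15.4, 12.9 and 13.9 CPM in wt (-0.60 ± 0.11, edgeR adjusted p = 0.00675). Hist1h2bm read 5.201, 6.52 and 4.90 CPM against 9.73, 7.89 and 8.90 CPM (-0.71 ± 0.15, edgeR adjusted p = 0.0118). Hist1h2be, Hist1h2bg and Hist1h2bp were lower by log2 differences of -0.58, -0.62 and -0.89 with adjusted p of 0.0232, 0.0436 and 0.0293. In none of the 5 did the groups overlap. Hist1h2bc, the H2B gene with the highest level and a 2-exon transcript with no stem-loop in its annotation, read 132, 118 and 122 CPM in KO and 129, 96.0 and 110 CPM in wt, overlapping and not called (0.12 ± 0.11, edgeR adjusted p = 0.576).

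In the H3 family 1 of 12 was lower, Hist1h3f, with 1.96, 2.77 and 3.48 CPM in KO and 5.18, 9.92 and 4.85 CPM in wt (-1.33 ± 0.29, edgeR adjusted p = 0.0170). WT2 was the highest sample for this gene. In the H4 family 1 of 13 was lower, Hist1h4c, with 10.2, 11.4 and 13.6 CPM in KO and 19.1, 14.4 and 19.8 CPM in wt (-0.63 ± 0.15, edgeR adjusted p = 0.0275). The more abundant H4 genes were not called: Hist1h4i read 49.1, 48.0 and 48.0 CPM in KO and 52.0, 53.5 and 54.0 CPM in wt (-0.17 ± 0.06, edgeR adjusted p = 0.130), without overlap. Hist1h4d read 22.6, 18.0 and 20.8 CPM against 25.0, 17.1 and 16.6 CPM (0.06 ± 0.15, edgeR adjusted p = 0.881).

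None of the 5 H1 genes tested was called by edgeR (1 of them, Hist1h1d, had an unadjusted p under 0.05, and its adjusted p was 0.110). Hist1h1c, the H1 gene with the highest level, read 69.9, 69.3 and 49.8 CPM in KO and 81.5, 68.8 and 53.9 CPM in wt (-0.14 ± 0.16). Hist1h1b read 63.7, 55.9 and 46.3 CPM against 72.9, 42.9 and 53.1 CPM (-0.05 ± 0.18), and Hist1h1e read 53.3, 52.1 and 42.7 CPM against 72.4, 48.6 and 44.9 CPM (-0.19 ± 0.17). All 3 overlapped between groups, with WT1 the highest sample in each. By family, the median log2 difference of the tested genes was -0.14 for H1, -0.51 for H2A, -0.49 for H2B, -0.38 for H3 and -0.41 for H4.

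**Figure D1:**
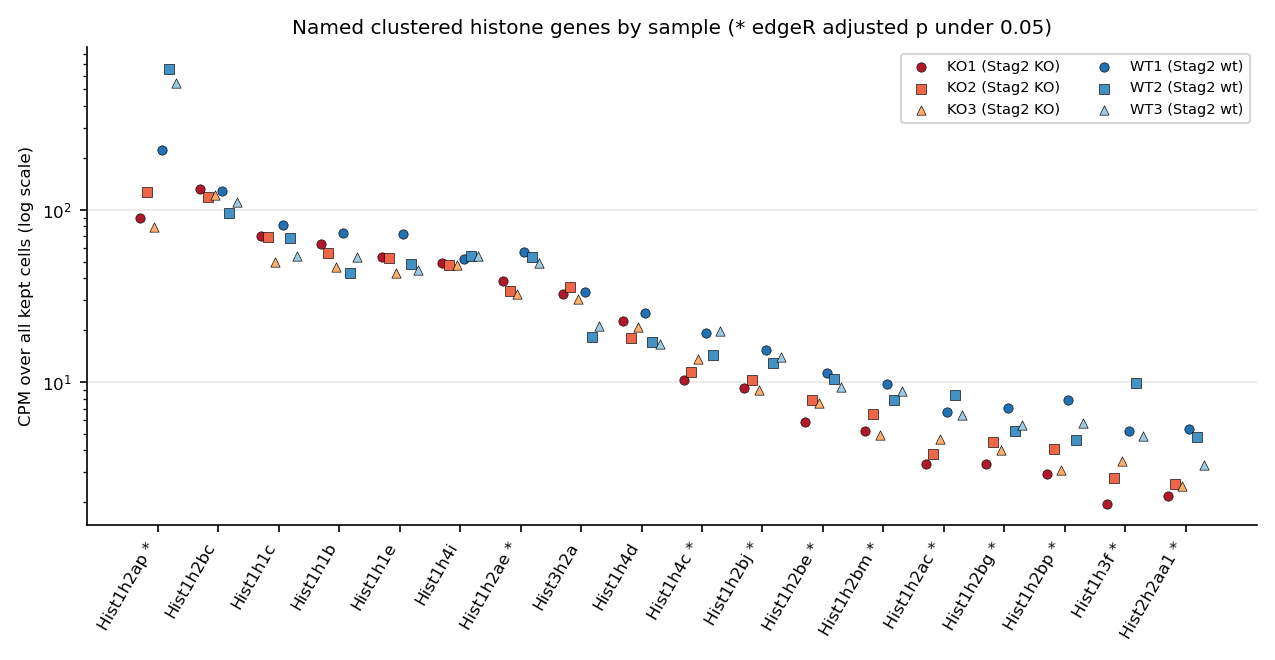
Level of the named members in each sample, over all kept cells, in CPM on a logarithmic axis, with 1 point per sample and an asterisk beside the 11 members called by edgeR. For Hist1h2ap the KO samples lie at 79.1 to 127 CPM and the wt samples at 223 to 658 CPM, while the points of Hist1h1b, Hist1h1c and Hist1h2bc overlap.

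Summed over all members, the level was 762, 814 and 697 CPM in KO and 1119, 1336 and 1227 CPM in wt. Without Hist1h2ap it was 672, 686 and 618 CPM in KO and 896, 678 and 685 CPM in wt, and the groups overlapped, with WT1 apart from the other 5 samples. H1 summed to 207, 193 and 153 CPM in KO and 254, 179 and 168 CPM in wt. H2B summed to 193, 193 and 183 CPM against 235, 178 and 191 CPM, and H2A without Hist1h2ap to 124, 135 and 120 CPM against 182, 141 and 135 CPM. H1 and H2B overlapped, and so did H2A without Hist1h2ap, by KO2 and WT3. H3 summed to 31.1, 38.4 and 38.0 CPM in KO and 61.8, 48.1 and 43.1 CPM in wt, and H4 to 117, 127 and 124 CPM against 163, 132 and 149 CPM. In both, every KO sample was below every wt sample.

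Which members were called hung on single samples and on the make-up of the cells. Without KO1 4 members were called lower, without KO3 6, without WT1 7 and without KO2 20. Of all genes, 544 to 1088 were called lower on leaving out 1 sample. Cells were also weighted to the same shares of cell class by cell cycle state in every sample. Then 3 members were called lower, Hist1h2ac, Hist1h2ae and Hist1h2ap, with a median log2 difference of -0.23 over the members. That is 4.69% of the 64 members, where 5.46% of all genes were lower. The higher share of members seen without the weighting was thus not seen with it. Hist1h2ap and Hist1h2ae were called under all 16 alternatives tried for them. Hist1h2ac was called in all except the 2 that use the title code prefix, and Hist1h2bj in all except that weighting.

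The title code prefix was examined for each member because WT1 is the only wt sample that shares the prefix of the KO samples. WT1 was the highest of all 6 samples for 46 of 64 members (71.9%), where it was the highest for 16.6% of all genes tested. It was above both WT2 and WT3 for 51 members (79.7%, against 32.6% of all genes) and above all 3 KO samples for 54 (against 3475 of 12643 genes). Hist1h2ap went the other way: WT1 stood at 0.371 times the mean of WT2 and WT3, and at 2.25 times the KO mean.

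With the prefix (XA or not) as a covariate, 14 members were lower in KO (21.9% of those tested, against 4.23% of all genes) and the median log2 difference was -0.76. Of the 14, 7 were among the 11 called without the covariate: Hist1h2ae, Hist1h2ap, Hist1h2bg, Hist1h2bj, Hist1h2bm, Hist1h2bp and Hist2h2aa1. The 7 others were Hist1h1d, Hist1h1e, Hist1h2ak, Hist1h2bh, Hist1h2br, Hist1h3e and Hist1h3i. This estimate compares the 3 KO samples with WT1 alone. For Hist1h2ap it was -1.22 ± 0.22 (edgeR adjusted p = 0.0142), and the term for the other prefixes over XA was 1.40 (edgeR adjusted p = 0.155). Prefix and sample cannot be told apart here, since XG and XN mark 1 sample each and hold no KO sample.

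**Figure D2:**
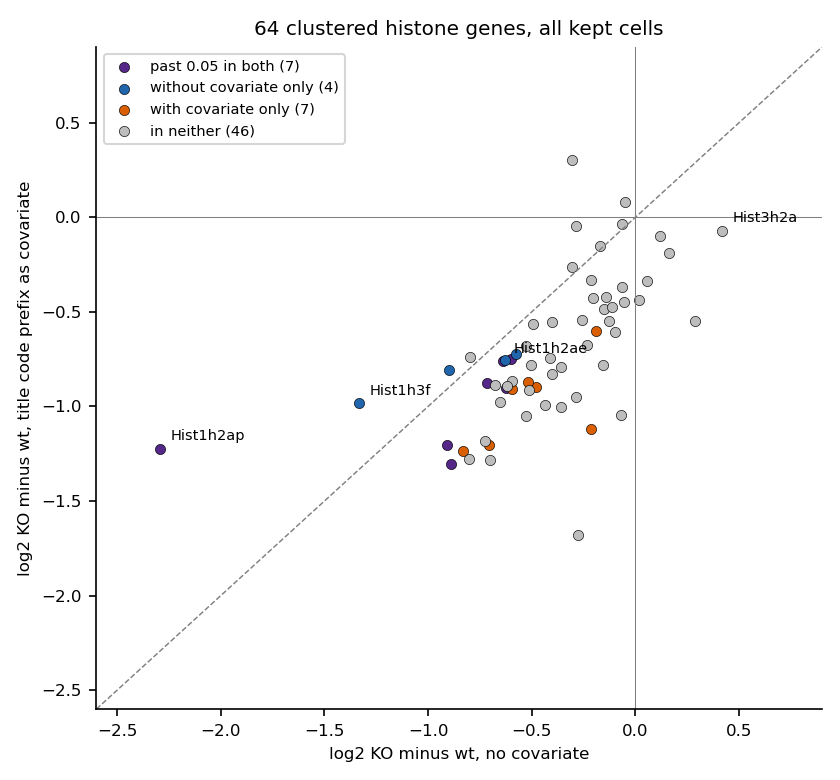
Log2 difference of each of the 64 tested members (KO minus wt, all kept cells) without the prefix term on the horizontal axis and with it on the vertical axis, coloured by where edgeR's adjusted p was under 0.05. Of the points, 7 were called in both fits, 4 without the term only and 7 with it only, and Hist1h2ap moved from -2.29 to -1.22.

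Cells were next split by cell cycle state, called G1-like, S-like and G2/M-like from fixed gene lists that hold no member, in cells thinned to 2000 UMIs. The shares of cells differed by less than the spread between samples: G1-like 60.1%, 65.9% and 61.1% in KO and 65.0%, 63.5% and 52.9% in wt (exact permutation p = 0.8, 2-sided, adjusted 0.9, where 0.1 is the smallest p possible). The S-like share was 24.4%, 20.3% and 24.2% against 20.9%, 22.02% and 27.4%, and the G2/M-like share 15.5%, 13.7% and 14.8% against 14.1%, 14.5% and 19.7% (exact permutation p = 0.9 and 0.7). Cells below 2000 UMIs were left out, between 119 and 407 per sample except in WT3, where they were 1800.

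Member levels followed the states. Of the 58 members with a mean of at least 1 CPM over all cells, 51 were higher in G2/M-like than in G1-like cells in all 6 samples, 37 were higher in S-like than in G1-like cells, and 57 were higher in G2/M-like than in S-like cells. The median ratio to G1-like cells was 2.30 for S-like and 5.37 for G2/M-like cells, and 21 members had a G2/M-like to G1-like ratio over 10. Hist1h3b (34.7), Hist1h2af (32.007), Hist1h2ap (28.1), Hist1h2ah (28.0) and Hist1h2bm (26.4) had the highest ratios. Hist1h2ap rose from a mean of 29.0 CPM in G1-like to 256 CPM in S-like and 816 CPM in G2/M-like cells.

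Some members did not follow that order. Hist3h2a (ratio 0.581), Hist3h2ba (0.651) and Hist2h2aa1 (0.716) had lower means in G2/M-like than in G1-like cells, in all 6 samples for Hist3h2a and Hist3h2ba. Hist1h2bc stood at 133 CPM in G1-like, 85.3 CPM in S-like and 147 CPM in G2/M-like cells, and Hist1h1c at 77.5, 28.6 and 77.6 CPM. Both were lower in S-like than in G1-like cells in every sample. These are descriptions of levels, since the states were called from expression of the same cells.

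In G2/M-like cells 12 of 58 tested members were lower in KO (20.7%, against 6.3% of all genes) and 0 higher (2.76% of all genes were higher). By unadjusted p under 0.05, edgeR had 28 lower (48.3%, against 12.7% of all genes) and 0 higher (9.48% of all genes), and DESeq2 called 14 lower (24.1%, against 5.36%) and 0 higher (1.75%). Hist1h2ap read 231, 361 and 216 CPM in KO and 703, 1946 and 1440 CPM in wt (-2.35 ± 0.30, edgeR adjusted p = 0.000730). Hist1h2ae read 88.1, 87.5 and 85.6 CPM against 177, 149 and 124 CPM, so its KO samples lay within a few CPM of each other and below every wt sample (edgeR adjusted p = 0.00151). Hist1h2bb read 9.63, 13.8 and 9.58 CPM against 26.7, 20.4 and 17.0 CPM (edgeR adjusted p = 0.00970), and Hist1h2bp 6.06, 9.23 and 7.88 CPM against 24.2, 13.3 and 13.8 CPM (edgeR adjusted p = 0.0142). The other 8 were Hist1h2ac, Hist1h2ah, Hist1h2bj, Hist1h2bl, Hist1h2bm, Hist1h3f, Hist2h2aa1 and Hist3h2ba. Of the 58 tested members, called or not, 20 were lower without overlap between groups, where 13% of all genes were. All 12 called members were among the 20, which their selection by p makes likely. The median over the members was -0.55, against 0.01 over all genes. Without KO1 5 members were called and without KO3 7. The share of all genes called in those fits is not given here.

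The S-like and G1-like sums held fewer calls, 3 members each. In S-like cells the lower members were Hist1h2ac, Hist1h2ae and Hist1h2ap (5.17% of 58 tested, against 5.07% of all genes), a share near the background, and 1 was called without WT3. Hist1h2ap there read 84.8, 116 and 72.8 CPM in KO and 203, 572 and 486 CPM in wt (-2.25 ± 0.29, edgeR adjusted p = 0.000373). In G1-like cells they were Hist1h2ap, Hist1h2bg and Hist1h4n (7.5% of 40 tested, against 3.7% of all genes). Hist1h4n read 2.09, 3.02 and 3.25 CPM in KO and 5.38, 6.39 and 7.27 CPM in wt (edgeR adjusted p = 0.00927), and Hist1h2bg 1.16, 1.63 and 1.92 CPM against 3.63, 3.72 and 3.07 CPM (edgeR adjusted p = 0.0284). No member was called higher by edgeR in either state (2.51% of all genes were higher in S-like and 1.44% in G1-like cells), with 0 and 2 higher at an unadjusted p under 0.05 (8.68% and 7.14% of all genes), and DESeq2 called 0 and 1 (1.9% and 1.5% of all genes). With the prefix as a covariate, only Hist1h2ap among the 3 remained called in G1-like cells. Without overlap, 5 of the 40 tested members were lower and 4 higher in G1-like cells, Hist1h2bc and Hist3h2a among the 4. In S-like cells 7 of 58 were lower and 0 higher without overlap. The share of all genes without overlap is not given here for these states.

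Hist1h2ap in G1-like cells was low: 10.98, 13.6 and 11.995 CPM in KO and 23.0, 65.0 and 49.7 CPM in wt (-2.01 ± 0.29, edgeR adjusted p = 0.00399). After thinning to 2000 UMIs, 1.39%, 1.87% and 2.07% of G1-like KO cells and 3.61%, 10.0% and 6.44% of G1-like wt cells had a UMI of it. G1-like T/NK cell-like cells, the comparison cells here, had a mean share of 0.741% in KO and 2.84% in wt, and the part of the G1-like counts that comes from RNA free in the droplets was not tested. Before thinning, the means were 5.37% and 13.7% for G1-like cells and 1.13% and 4.02% for the T/NK cell-like ones, at median depths of 4453 to 4667 and 3249 to 3332 UMIs in KO and of 3536 to 3955 and 2648 to 3457 UMIs in wt. In G2/M-like cells the thinned shares were 27.5%, 37.3% and 28.1% in KO and 50.5%, 60.5% and 55.7% in wt. The median G2/M-like cell held 1 UMI of Hist1h2ap in each KO sample and 2, 9 and 6 in WT1, WT2 and WT3, and G2/M-like cells gave 61.0% to 66.4% of its UMIs in every sample.

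**Figure D3:**
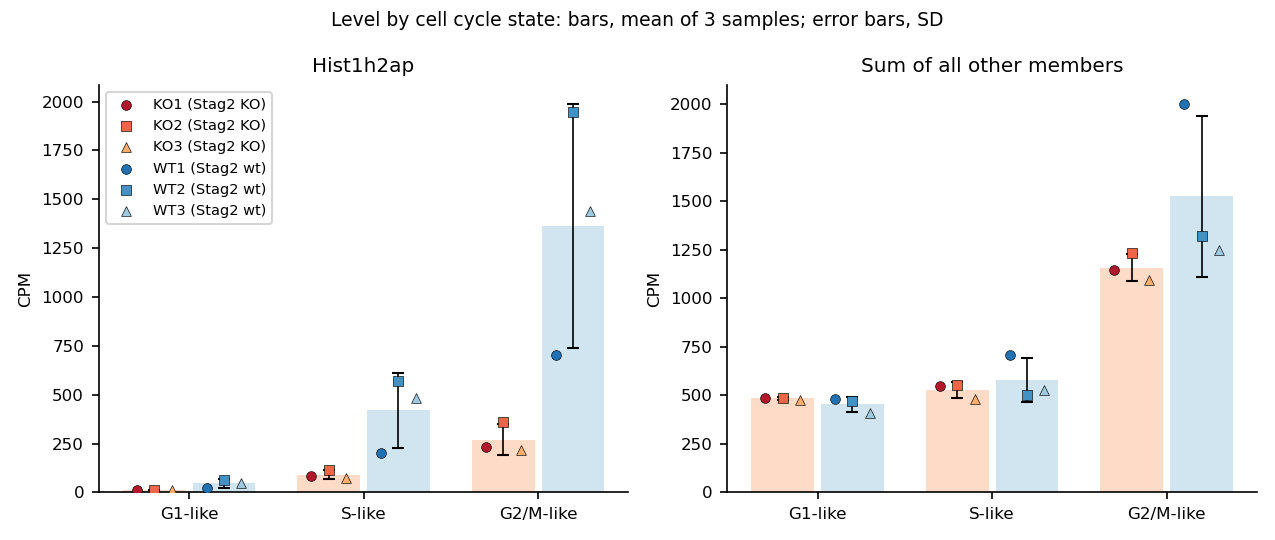
Summed CPM of Hist1h2ap and of all other members in G1-like, S-like and G2/M-like cells, with bars for the mean of 3 samples, error bars for the SD and points for samples. Hist1h2ap is lower in KO in all 3 states, while the sum of the others overlaps between groups in G1-like and S-like cells and, at 1095 to 1233 CPM in KO and 1249 to 2001 CPM in wt, does not in G2/M-like cells, where WT1 is the highest point.

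Whether the difference itself varied with state was tested on each sample's own log2 difference between states (limma, n = 3 and 3). For S-like minus G1-like, 0 of 59 members and 0 of 11903 genes were called, and 8 members (1270 genes, 10.7%) had an unadjusted p under 0.05. For Hist1h2ap the KO minus wt value was -0.28 (95% interval -0.67 to 0.10, limma adjusted p = 0.618). For G2/M-like minus G1-like, a contrast added after the data were seen, 0 of 59 members were called and 1 of 11554 genes, and 9 members (1507 genes, 13%) had an unadjusted p under 0.05. There the Hist1h2ap value was -0.41 (95% interval -0.80 to -0.01, limma adjusted p = 0.374). A miss here does not show equal differences: on simulated data of this size, limma found 15% of genes changed by 1 on the log2 scale and 94% of those changed by 2. The simulation used a fixed dispersion and drew the states independently, so these shares need not hold for each member.

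The cells were grouped into 21 clusters without using any member, and 16 clusters were named from fixed markers. The labelled lineage-negative fraction thus also held clusters whose markers are those of mature types, T/NK cell-like cells among them. In 9 classes each sample had enough cells for a test, and Hist1h2ap was lower in KO in all 9 (edgeR adjusted p between 1.16e-06 and 0.0317). Of the 243 tests of members in classes, 45 were lower and 1 higher, and 36 of the 45 were of genes other than Hist1h2ap. Those 36 all fell in basophil/mast cell-like and dendritic cell-like cells, where 14.3% and 7.47% of all genes were lower. Higher in KO were, of all genes tested, 0.246% in lymphoid progenitor-like, 0.327% in megakaryocyte-like, 0.392% in HSC/MPP-like, 0.597% in granulocyte progenitor-like, 0.855% in monocyte-like, 1.03% in early erythroid-like and 1.25% in T/NK cell-like cells.

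In the stem cell-like class (HSC/MPP-like) Hist1h2ap read 11.6, 12.2 and 8.08 CPM in KO and 17.2, 56.7 and 30.6 CPM in wt (log2 difference -1.91). Early erythroid-like cells had 140, 188 and 97.4 CPM against 279, 540 and 719 CPM (-1.92), and megakaryocyte-like cells 76.9, 118 and 66.7 CPM against 222, 374 and 454 CPM (-2.13). In each of these, all KO samples were below all wt samples. Granulocyte progenitor-like cells had 72.2, 81.5 and 55.7 CPM against 140, 317 and 378 CPM (-2.14). Monocyte-like cells had 115, 168 and 114 CPM against 223, 779 and 565 CPM (-2.04), and lymphoid progenitor-like cells 25.3, 22.2 and 6.75 CPM against 32.3, 270 and 110 CPM (-3.07). None of the 3 overlapped, and in all 6 classes WT1 was the lowest wt sample. In T/NK cell-like cells Hist1h2ap read 12.7, 15.6 and 8.98 CPM in KO and 7.68, 76.9 and 89.6 CPM in wt (-2.37, edgeR adjusted p = 0.0317), and WT1 was the lowest of all samples.

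The replicates are separate mice, so p-values measure the spread between mice, and the members are not replicates of each other. The T/NK cell-like call ended on leaving out KO1, KO2, KO3, WT2 or WT3, with adjusted p of 0.176, 0.0738, 0.126, 0.111 and 0.131. The calls in the other 8 classes were kept on leaving out any sample. DESeq2 called 7 of the 9, missing T/NK cell-like (adjusted p = 0.340) and lymphoid progenitor-like cells (adjusted p = 0.188). With the prefix as a covariate 6 of 9 were called. The estimate in HSC/MPP-like cells was then -0.86 (edgeR adjusted p = 0.633), in lymphoid progenitor-like cells -1.004 (edgeR adjusted p = 0.811) and in T/NK cell-like cells 0.54 (edgeR adjusted p = 0.730).

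By class and cell cycle state together, 17 combinations could be tested, and Hist1h2ap was lower in KO in 14 of them. The estimate was negative in all 17, from -1.35 in G1-like early erythroid-like cells to -4.02 in G1-like basophil/mast cell-like cells. Of all genes, the share lower in KO was 0.778%, 1.15%, 0.859%, 1.67% and 0.537% in G1-like HSC/MPP-like, early erythroid-like, lymphoid progenitor-like, T/NK cell-like and monocyte-like cells. It was 0.629%, 0.882%, 0.455% and 0.828% in S-like HSC/MPP-like, granulocyte progenitor-like, megakaryocyte-like and monocyte-like cells, and 1.02% and 0.713% in G2/M-like granulocyte progenitor-like and monocyte-like cells. In basophil/mast cell-like cells it was higher, at 10.7%, 2.23% and 2.55% in the G1-like, S-like and G2/M-like ones, and in dendritic cell-like cells it was 2.48%, 0.658% and 0.955%. The 3 without a call were S-like HSC/MPP-like cells (edgeR adjusted p = 0.0783), G1-like T/NK cell-like cells (0.0598) and G1-like lymphoid progenitor-like cells (0.0606). DESeq2 called 10 of the 17, and the fit with the prefix as a covariate 6, with all 17 estimates negative. Calls ended without single samples in 3 combinations: G1-like HSC/MPP-like cells without WT2 (edgeR adjusted p = 0.0654), G1-like early erythroid-like cells without KO2, WT2 or WT3 (0.0880, 0.0871 and 0.0664), and G1-like monocyte-like cells without KO1, KO2 or WT2 (0.102, 0.0864 and 0.0853).

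**Figure D4:**
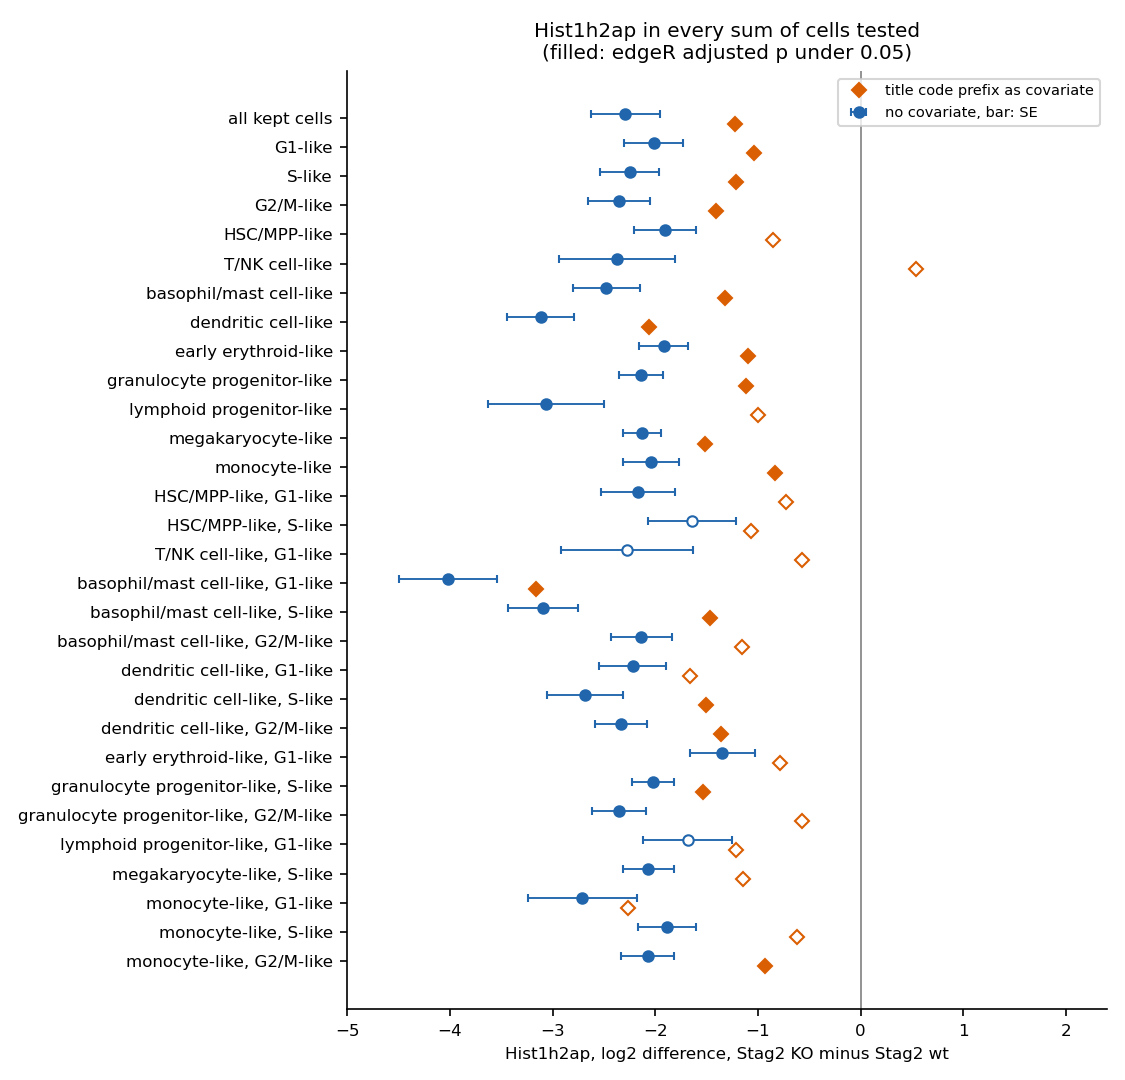
Log2 difference of Hist1h2ap (KO minus wt) in 30 sums of cells: all cells, 3 states, 9 classes and 17 combinations of both, with circles and SE bars for the fit without the prefix term, diamonds for the fit with it, and filled symbols for an edgeR adjusted p under 0.05. All circles lie below 0, and the diamond lies above 0 only for T/NK cell-like cells, at 0.54.

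In 7 of the 9 classes Hist1h2ap was the only member called. The tested members numbered 14 in HSC/MPP-like cells (1.04% of all genes were lower there), 10 in T/NK cell-like (1.36%), 20 in early erythroid-like (1.37%), 43 in granulocyte progenitor-like (1.73%), 8 in lymphoid progenitor-like (0.591%), 13 in megakaryocyte-like (0.753%) and 37 in monocyte-like cells (1.53%). The median log2 difference over the members other than Hist1h2ap ran from -0.09 in monocyte-like to 0.39 in lymphoid progenitor-like cells. DESeq2 called no other member in those 7 classes. At an unadjusted p under 0.05, edgeR had most in granulocyte progenitor-like cells, with 4 lower, Hist1h2ap included, and 5 higher (9.3% and 11.6%, against 6.79% and 6.01% of all genes). The remaining 2 classes, basophil/mast cell-like and dendritic cell-like, held all other calls.

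In basophil/mast cell-like cells 26 of 51 tested members were lower in KO (51%, against 14.3% of all genes) and 0 higher (9.21% of all genes were higher). DESeq2 called 23 lower (45.1%, against 10.8% of all genes) and 0 higher (5.14%). At an unadjusted p under 0.05, edgeR had 34 lower (66.7%, against 19.4%) and 0 higher (15.8%). The calls covered 3 of 5 H1 genes, 6 of 11 H2A, 8 of 15 H2B, 4 of 9 H3 and 5 of 11 H4, with a median of -0.86 over the members. Hist1h2ap read 70.8, 125 and 48.9 CPM in KO and 173, 559 and 435 CPM in wt (-2.48 ± 0.33). Hist1h3f read 2.92, 6.36 and 4.69 CPM against 17.4, 32.4 and 15.02 CPM (-2.48 ± 0.34, edgeR adjusted p = 4.65e-05), and Hist2h2aa1 4.55, 4.45 and 2.35 CPM against 22.7, 18.4 and 10.1 CPM (-2.28 ± 0.35, edgeR adjusted p = 0.000122). In all 3 every KO sample was below every wt sample, as in 21 of the 51 tested members. The share of all genes without overlap is not given here for the classes.

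Of the 5 H1 genes, 3 were lower in this class (Hist1h1c, Hist1h1d and Hist1h1e), while Hist1h1b and Hist1h1a, at log2 differences of -0.07 and 0.11, were not called. Hist1h1c read 119, 156 and 71.4 CPM in KO and 252, 218 and 156 CPM in wt (-1.02 ± 0.20, edgeR adjusted p = 0.00129), with KO2 just above WT3. Hist1h1d read 10.7, 10.2 and 12.1 CPM against 31.6, 29.5 and 19.6 CPM (-1.39 ± 0.21, edgeR adjusted p = 0.000104), without overlap. Hist1h4c read 12.99, 22.9 and 19.8 CPM against 36.1, 35.3 and 42.4 CPM (-1.24 ± 0.18, edgeR adjusted p = 5.65e-05), also without overlap.

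The class was not made of the same clusters in both groups. Its cluster 0 held 13, 11 and 15 cells of the KO samples and 368, 756 and 1063 of the wt samples, most of the wt part of the class. Cluster 2 held 385, 176 and 373 KO cells, most of the KO part. In cluster 0, 9 of the 12 markers of the class were raised, but 0 were among its 10 leading genes. An unnamed cluster, outside the class, held 565, 332 and 582 KO cells and 15, 10 and 43 wt cells. Ccl3 and Lilrb4a were among the leading genes of both that cluster and cluster 0. Whether the KO and wt cells of the class are of the same kind was not tested. What share of the differences in this class comes from that make-up was not tested. Within states, 9 of 18 members were lower in G1-like (10.7% of all genes), 2 of 19 in S-like (2.23%) and 6 of 38 in G2/M-like cells of the class (2.55%). DESeq2 called 8, 1 and 1, of 18, 7 and 25 members for which it gave an adjusted p (44.4%, 14.3% and 4%). Of all genes it called 8%, 1.91% and 2.39% lower there. In its G1-like cells, Hist1h2ap read 3.25, 4.68 and 5.40 CPM in KO and 36.7, 110 and 45.4 CPM in wt. Hist1h2be read 3.90, 4.68 and 4.72 CPM against 20.7, 31.8 and 15.99 CPM (-2.52, edgeR adjusted p = 0.000188). In its G2/M-like cells, Hist1h2bj read 52.1, 52.7 and 40.7 CPM against 91.9, 86.2 and 87.7 CPM (-1.01, edgeR adjusted p = 0.00261).

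In dendritic cell-like cells 12 of 47 tested members were lower in KO (25.5%, against 7.47% of all genes) and 1 higher (5.16% of all genes were higher). Hist1h2ap read 60.1, 131 and 125 CPM in KO and 423, 1322 and 983 CPM in wt (-3.12 ± 0.33, edgeR adjusted p = 5.50e-05), the highest wt levels among the 9 classes. Hist1h2ae read 40.4, 47.1 and 62.7 CPM against 137, 122 and 107 CPM (-1.30 ± 0.15, edgeR adjusted p = 8.97e-05), and Hist1h4i 34.2, 43.9 and 39.4 CPM against 67.4, 65.3 and 61.0 CPM (-0.73 ± 0.12, edgeR adjusted p = 0.00151). Groups did not overlap for these 3. Of the 47 tested members, 19 were lower and 2 higher without overlap. The other members called lower were Hist1h1b, Hist1h2ab, Hist1h2ac, Hist1h2ag, Hist1h2ai, Hist1h2bj, Hist1h2bm, Hist1h3c and Hist1h3f. The count called lower was 7 without KO1, 7 by DESeq2 (14.9%, against 4.87% of all genes) and 7 at a finer clustering.

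The make-up by state of the dendritic cell-like class differed as well: the G1-like share was 77.4%, 76.0% and 72.0% in KO and 48.4%, 51.4% and 48.4% in wt. The class also joined cluster 1, with Cd74 and Cd209a among its leading genes, and cluster 4, with Siglech and Cox6a2. Cluster 1 held 280, 262 and 251 KO cells and 245, 405 and 523 wt cells. Cluster 4 held 290, 240 and 299 KO cells and 186, 361 and 337 wt cells. The part of this mix in the differences was not tested. Within each state of the class, Hist1h2ap was the only member called lower, at log2 differences of -2.22 in G1-like (2.48% of all genes were lower), -2.68 in S-like (0.658%) and -2.33 in G2/M-like cells (0.955%). DESeq2 also called no other member lower there. At an unadjusted p under 0.05 edgeR had 4, 3 and 2 members lower, Hist1h2ap included. These were 36.4%, 20% and 6.06% of the members, against 9.51%, 5.02% and 4.96% of all genes. Hist3h2a was higher in KO in the class, at 95.7, 88.1 and 80.5 CPM against 51.2, 33.5 and 37.9 CPM (1.11 ± 0.15, edgeR adjusted p = 0.000314), without overlap. In its G1-like cells Hist3h2a read 128, 115 and 111 CPM against 79.0, 56.9 and 65.2 CPM (0.81, edgeR adjusted p = 0.00304, where 1.5% of all genes were higher).

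The remaining higher calls by class and state were of 2 genes. Hist3h2a was higher in G1-like T/NK cell-like cells, at 27.4, 32.2 and 33.7 CPM in KO and 18.1, 12.5 and 12.3 CPM in wt (0.99, edgeR adjusted p = 0.0306, where 1.51% of all genes were higher). Hist1h1b was higher in S-like monocyte-like cells, at 81.7, 81.3 and 76.2 CPM against 49.1, 34.5 and 42.6 CPM (0.91, edgeR adjusted p = 0.00325, where 0.414% of all genes were higher). Both were without overlap, with WT1 the wt sample nearest to KO. Of the other combinations, those of basophil/mast cell-like cells had 7.27%, 0.761% and 0.857% of all genes higher (G1-like, S-like and G2/M-like). S-like and G2/M-like dendritic cell-like cells had 0.214% and 0.452%. In G1-like cells the share was 0.277% for HSC/MPP-like, 0.869% for early erythroid-like, 0.279% for lymphoid progenitor-like and 0.244% for monocyte-like cells. S-like HSC/MPP-like, granulocyte progenitor-like and megakaryocyte-like cells had 0.114%, 0.331% and 0.186%, and G2/M-like granulocyte progenitor-like and monocyte-like cells 0.215% and 0.321%. With the prefix as a covariate no member was called higher in any of the 17 combinations.

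**Figure D5:**
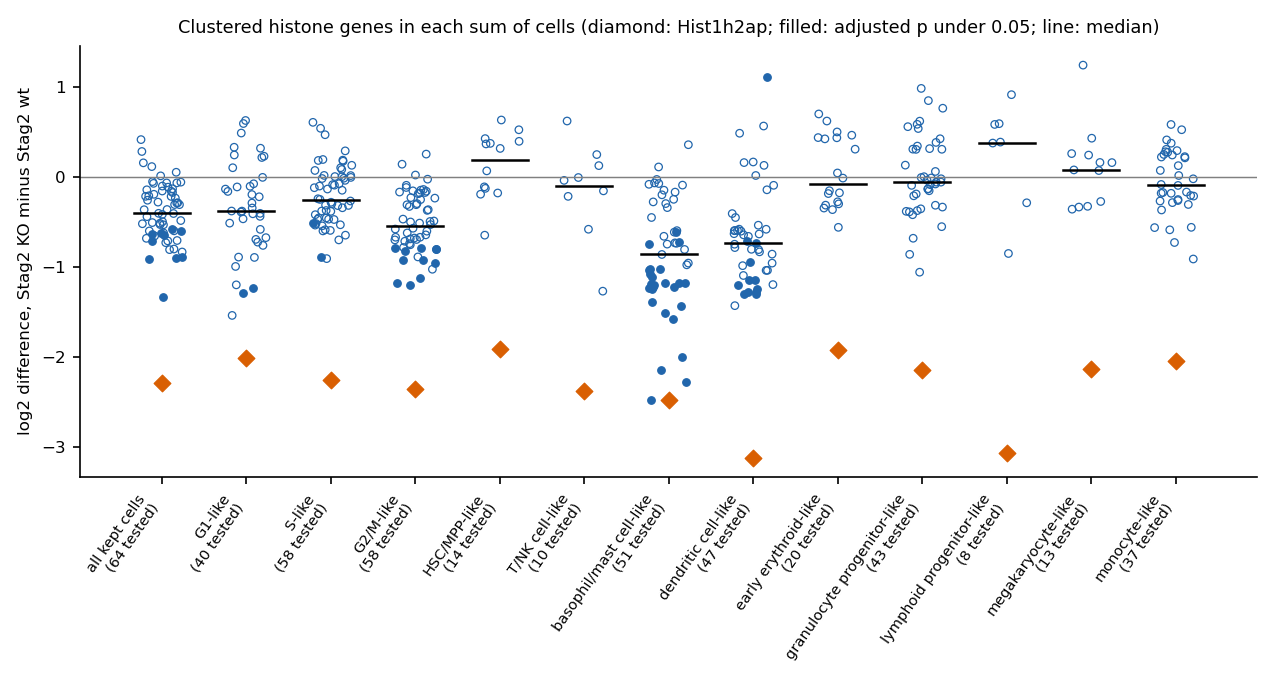
Log2 difference (KO minus wt) of every tested member, 1 point each, over all cells, in 3 states and in 9 classes, with a diamond for Hist1h2ap and a line at the members' median. The diamond is the lowest point in every column except that of basophil/mast cell-like cells, where Hist1h3f is level with it, and the medians lie furthest below 0 in basophil/mast cell-like (-0.86) and dendritic cell-like cells (-0.73).

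Few genes that act on histone RNA and protein were called. In the list of histone gene transcription and 3′ end processing, 1 of 23 tested genes was higher over all cells and 1 lower (4.35% each). Of all genes, 3.6% were higher and 7.2% lower. The higher one was Ncbp2, a subunit of the cap-binding complex, at 54.0, 50.6 and 54.4 CPM in KO and 41.5, 41.5 and 39.7 CPM in wt (0.34 ± 0.07, edgeR adjusted p = 0.00869). The lower one was Ccne1, cyclin E1, at 7.95, 6.05 and 7.10 CPM against 10.2, 11.03 and 9.55 CPM (-0.56 ± 0.12, edgeR adjusted p = 0.0122). Both were without overlap. Slbp, the stem-loop binding protein, read 145, 142 and 156 CPM in KO and 143, 162 and 168 CPM in wt, overlapping and not called (-0.13 ± 0.08, edgeR adjusted p = 0.370). Of 21 histone chaperones and the acetyltransferase Hat1, edgeR called 0 (1 at an unadjusted p under 0.05) and DESeq2 0. Of 11 histone genes outside the clusters, edgeR called 0 (1 lower and 3 higher at an unadjusted p under 0.05) and DESeq2 1, lower. Of all genes, edgeR had 14.1% lower and 10.6% higher at that unadjusted p, and DESeq2 called 7.44% lower. Among the 11 was H2afz, the H2A.Z variant gene, at 2289, 2076 and 2239 CPM in KO and 1709, 1834 and 2026 CPM in wt, without overlap (0.21 ± 0.08, edgeR adjusted p = 0.153).

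Of the 43 S phase list genes, 0 were called over all cells by edgeR (3 at an unadjusted p under 0.05) or by DESeq2. Of 52 tested G2/M phase list genes, 2 were lower (3.85%, against 7.2% of all genes). One was Kif23, a kinesin of the dividing cell's midzone, with a log2 difference of -0.73 (edgeR adjusted p = 0.000741). The other was Lbr, the lamin B receptor, with -0.41 (edgeR adjusted p = 0.00517). The summed level of the G2/M phase list overlapped, at 3947, 3783 and 3979 CPM in KO and 3789, 4029 and 4146 CPM in wt. Within G2/M-like cells, 7 of the 52 were lower (13.5%, against 6.3% of all genes). The summed level there was 8548, 8702 and 9020 CPM in KO and 9607, 10080 and 9494 CPM in wt, without overlap. Its part in the lower member levels of those cells was not tested. Of 14 tested genes of the immediate early response and of stress on dissociation, 4 were lower over all cells (28.6%, against 7.2% of all genes). They were Jund, Nr4a1, Junb and Klf6. The list summed to 277, 297 and 275 CPM in KO and 338, 383 and 344 CPM in wt. That sum also kept the groups apart, and its part in the members' levels was not tested either.

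In bulk sums like these, fewer cells with a transcript and less of it per cell give the same level. For Hist1h2ap in G2/M-like cells, both were lower in KO. Before thinning, a mean of 56.7% of these cells in KO and 69.6% in wt had a UMI of it. The 90th percentile of its UMIs per cell was 9, 15 and 8 in KO1, KO2 and KO3. In WT1, WT2 and WT3 it was 23, 65.4 and 34. Median depth of these cells was 11226 to 14106 UMIs in KO and 7179 to 9907 UMIs in wt. The part of each in the difference was not tested. By length of the annotated 3′ end, 6 of 26 tested members with over 150 bases after the stop codon were lower in KO over all cells, with a median log2 difference of -0.30, and 5 of 37 with up to 150 bases, with a median of -0.41. Over all genes tested, 7.2% were lower. The counts by length were not tested against each other or against that share.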

How the data were processed

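The deposited tables hold counts per cell and gene symbol, as whole-number UMI counts not normalized by the authors, 1 table per sample (3 Stag2 KO and 3 Stag2 wt mice, 10X Chromium 3′ libraries per the labels' protocols). The sources used here do not give the aligner, annotation or strand setting.

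Cells were kept from 500 detected genes upwards and up to 20% mitochondrial UMIs, and those with the highest doublet scores (0.8% per 1000 cells) were removed. Clusters (Leiden, resolution 1.0, 2000 variable genes without members, 30 components) were named from fixed markers, and states were called with scanpy on cells thinned to 2000 UMIs. Counts were summed per sample, and edgeR's quasi-likelihood test was fitted to the sums (TMM scaling, filterByExpr, Benjamini-Hochberg over all genes, threshold 0.05). Between-state differences were tested with limma (prior count 2) and state shares with an exact permutation test. Classes needed 20 cells in every sample. CPM are UMIs per 1000000 UMIs of the summed cells. The 95% intervals given are limma's and cover the spread between samples. Sums by class held 269843 to 7613037 UMIs.

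The rule named all members called over all cells and the 10 with the highest mean level, members called in a class or state, and up to 4 called genes per list. Hist1h2ao, Slbp and H2afz were named outside it, after their values were seen. The members and lists were chosen with earlier results of these data known. On simulated counts edgeR recovered 94% of genes changed by 1 on the log2 scale in the sum of all cells. Changes were planted only in genes above a floor of expected counts, with a fixed dispersion. This share thus need not hold for members with few counts or a wider spread between samples. Alternatives were DESeq2, other filters and factors, the prefix as a covariate or XA samples only, equal class and state shares, a finer clustering and leaving out each sample. Sequences and coordinates come from GENCODE M21 (GRCm38), matched by symbol for all 68 members. Software was Python 3.11.15, scanpy 1.11.5, leidenalg 0.10.2, R 4.3.3, edgeR 4.0.16, DESeq2 1.42.0 and limma 3.58.1.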

Additional observations from a re-analysis of the deposited data

How the results depend on the processing

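No paired analysis was possible because the replicate numbers were given in order of deposit and pair no mice. The count of 11 members lower over all cells was 7 with cells of at least 2000 UMIs, 21 with no filter on low counts, 6 with equal state shares, 6 with equal class shares, 3 with equal shares of class by state, and 4 to 20 on leaving out 1 sample each; members higher numbered 0 to 1 on leaving out samples. All genes lower (910) numbered 378 in XA samples only, 535 with the prefix covariate and 544 to 1088 on leaving out samples, and all genes higher (455) 162, 200 and 207 to 424. In G1-like cells members lower numbered 6 with no filter, 8 with states called on full counts, 1 in XA samples and 1 with the covariate, and members higher 1 by DESeq2, 1 with no filter and 0 to 1 on leaving out samples. In S-like cells members lower numbered 5 with no filter and 1 to 3 on leaving out samples, and higher 0 to 2. In G2/M-like cells members lower numbered 29 with no filter and 5 to 15 on leaving out samples. Over the classes, members higher numbered 5 at resolution 2.0, 0 in XA samples and 1 to 7 on leaving out samples. Over class and state, members lower numbered 18 by DESeq2 and 13 with the covariate, and members higher 0 in XA samples, 0 with the covariate and 2 to 7 on leaving out samples. Among the named genes not called, Hist1h1b turned from -0.05 to 0.067 with equal shares of class by state and 0.030 with equal class shares (-0.23 to 0.17 on leaving out samples). Hist1h1c turned to 0.040 with cells of at least 2000 UMIs, 0.044 with equal state shares, 0.24 with equal class by state shares and 0.13 with equal class shares (-0.28 to 0.016). Hist1h1e turned to 0.10 and 0.0078 with equal class by state and class shares (-0.31 to 0.053). In XA samples only and with the covariate, Hist1h2bc was -0.0996 and -0.10, Hist1h4d -0.33 and -0.34 (-0.052 to 0.26 on leaving out samples), Hist3h2a -0.068 and -0.070, and Hist1h2ap in T/NK cell-like cells 0.54 and 0.54. The KO minus wt share of cells was -2.24 percentage points for G1-like and 3.1 for S-like with states called on full counts, and on leaving out samples ran from -1.89 to 4.14 for G1-like, -1.74 to 1.52 for S-like and -2.40 to 0.371 for G2/M-like cells. The log2 ratio of mean summed levels (-0.70) was -0.19 without Hist1h2ap and, for Hist1h2ap alone, -2.26. The last 2 splits and the G2/M-like minus G1-like contrast were chosen after seeing the data. The cause of these shifts was not tested. In this section, counts of all genes were given only for XA samples, the covariate and leaving out samples, over all kept cells. The other counts of members cannot be set against all genes here. Depth limits the low members: 52 of 68 had a mean under 10 CPM.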
